A study of Populus ussuriensis with 18 samples.

Results

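Among 12994 root transcripts of the poplar Populus ussuriensis, 218 were raised late in osmotic stress but not at its start, and these late-raised transcripts are described here. They were chosen by their FPKM. A transcript was taken when it was at least 400 bases long, reached 1 FPKM in 3 or more libraries, and had a mean log2(FPKM + 1) that lay at least 0.8 over that of 0 h at 120 h, at least 0.5 over it at 48 h and less than 0.3 over it at 6 h. FPKM is the number of sequenced fragments scaled by transcript length and by how many fragments of that library mapped. Differences called log2 below are differences of mean log2(FPKM + 1), and ratios are ratios of mean FPKM. Apart from the FPKM minimum, which counted all libraries, the choice used those of 0, 6, 48 and 120 h. Values at those times are therefore given as a description and were not tested. Of the transcripts with 400 bases or more and enough signal, 534 passed the limit at 120 h, 489 of them also that at 48 h, and 218 of those also that at 6 h.

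The libraries came from roots of wild type seedlings, 3 weeks old, that were put into liquid medium holding 6% PEG. Roots were taken at 0 h and at 5 later times, which were 6, 12, 24, 48 or 120 h. Each time had 3 biological replicates, each a pool of at least 6 seedlings, giving 18 libraries whose spread is one between pools. The seedlings at 0 h were the sole control, the labels name the PEG agent for them as well, and no seedlings kept in medium without PEG entered the series, so time in PEG and time since transfer cannot be told apart. The labels state a common harvest time, and the hour of day was not given in the sources used here. Times of 6 and 12 h are not whole days from 0 h, while 24, 48 and 120 h are. Whether hour of day differed along with time in PEG cannot be told, for the rule or for the comparison of 24 h with 12 h. As the samples were whole roots, fewer cells of a type and less RNA per cell cannot be told apart.

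PEG is a polymer too large to enter plant cells that draws water away from roots. In plants, fast responses to water shortage such as calcium and abscisic acid signaling are followed by slower acclimation, in which metabolism, transport and growth are adjusted. Roots also hold plastids, which make fatty acids, amino acids and carotenoid precursors of abscisic acid and which can acquire photosynthetic proteins in the light. The circadian clock of plants is built from transcription factors that repress one another in turn, and LHY is one of its morning factors in Arabidopsis.

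Of the 218 transcripts, 48 were listed in the study's annotation tables and 41 of these had a protein or domain name, while 170 were not listed there. The tables were largely made from transcripts that the study had called changed, so the names are not a random draw of the 218. The median length was 1099 bases, against 1327 bases over the 12080 transcripts tested. Their median level was 23 FPKM at 0 h and 49.8 FPKM at 120 h, while the medians over all transcripts tested were 31.6 and 31.3 FPKM. The SD within a time had a median of 0.17 on the log2 scale in the late-raised transcripts and of 0.12 over all.

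One library has to be named before the results. In 120 h replicate 1 the 218 transcripts lay a median of 0.27 on the log2 scale over the mean of their time, while replicates 2 and 3 lay at -0.14 and -0.13. Replicate 1 was the highest 120 h library for 172 of the 218 transcripts and for 5318 of all 12080. Without it the rule took 158 transcripts, of which 151 were among the 218, so that 67 of the 218 rested on it. The second library that stood apart was 48 h replicate 3, which had the lowest mean correlation with its own time of all libraries, 0.96 over all transcripts tested. High-affinity nitrate transporter 2.1, a root nitrate importer, was listed at 247, 245 and 70.2 FPKM in the 48 h libraries and at 255, 438 and 439 FPKM in those of 120 h. Peroxidase 72 was listed at 64.6, 67.0 and 194 FPKM at 48 h. Without both libraries the rule again took 158 transcripts, 145 of them among the 218. The other single libraries moved the number to between 211 and 256, and between 194 and 215 of the 218 were kept. Only 116 of the 218 were kept under each single leave-out. With the median in place of the mean the rule took 186 transcripts, 159 of them among the 218.

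The late-raised transcripts held a growing part of the library after 6 h. Their summed FPKM made up 1.76 to 1.78% of all FPKM at 0 h and 1.13 to 1.16% at 6 h. It was 1.93 to 1.94% at 12 h, 2.41 to 2.43% at 24 h and 3.16 to 3.27% at 48 h. At 120 h the libraries gave 4.84, 3.52 and 3.56%, replicate 1 first. A few abundant transcripts weigh heavily on these sums. In 120 h replicate 1 the sum was 54023 FPKM, of which the most abundant, f2p27_947_11751, gave 9247. On the log2 scale the median difference from 0 h was -0.30 at 6 h, 0.30 at 12 h, 0.52 at 24 h, 0.83 at 48 h and 1.01 at 120 h, while the medians over all transcripts tested lay between -0.04 and 0.01. The rule fixed the signs at 48 and 120 h, and it set only an upper limit at 6 h.

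**Figure D1:**
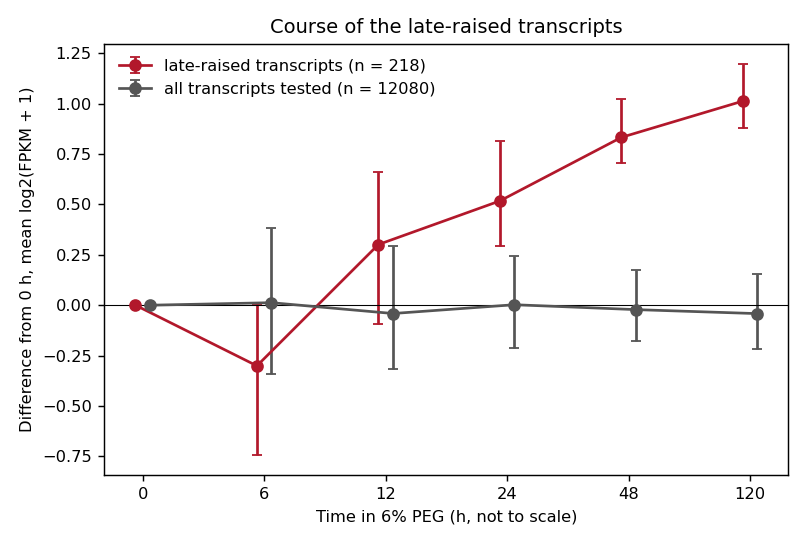
Median difference from 0 h in mean log2(FPKM + 1) at each time in PEG, with bars from the lower to the upper quartile, for the 218 late-raised transcripts and the 12080 transcripts tested. The late-raised median went from -0.30 at 6 h to 1.01 at 120 h, while that of all transcripts stayed between -0.04 and 0.01.

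**Figure D2:**
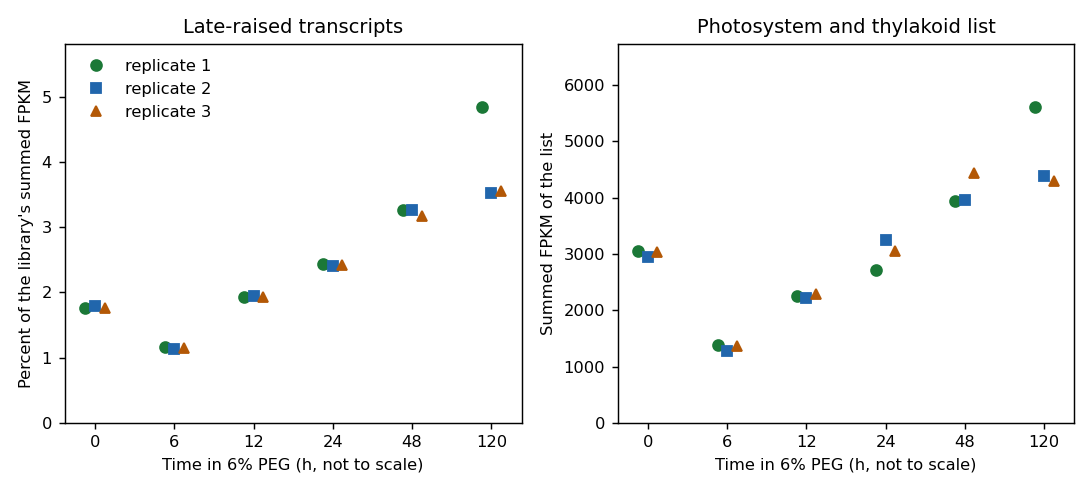
Left, percent of each library's summed FPKM held by the 218 late-raised transcripts. Right, summed FPKM of 25 photosystem, chlorophyll-binding and thylakoid transcripts. Each point is 1 library, and 120 h replicate 1 lies above the other 120 h libraries in both, at 4.84% and 5610 FPKM.

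At 6 h most of them were under their starting level. The rule capped the difference at 6 h, so these values were in part fixed by the choice. The mean at 6 h was under that of 0 h in 161 of 218, or 73.9%, against 48.8% of all transcripts tested, and in 50 it was lower by 0.8 or more on the log2 scale, against 8.82% of all. All 6 h libraries were under all 0 h libraries in 119 transcripts, with 33.8% over all. At 120 h the libraries of 212 lay wholly over those of 0 h, and at 48 h those of 211, against 20.4% and 21.3% over all, as the rule required in large part. The highest treated time was 120 h for 174 transcripts, against 23% of all, 48 h for 22, 24 h for 14 and 12 h for 8. In 83 the mean was higher at each step from 6 to 12, 24, 48 and 120 h, against 7.09% of all, and the rule fixed part of that order too.

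By the rule all lay less than 0.3 over 0 h at 6 h, while 71 of the 218 already lay 0.8 or more over 0 h at 12 h, 24 h or both. At 12 h 39 did so, against 9.07% of all tested, and at 24 h 58, against 7.0% of all. Split further, 26 were raised by this limit at both times, against 5.05% of all, and 32 at 24 h alone, against 1.95%. The 13 raised at 12 h alone were 5.96% of the 218, near the 4.02% of all. The 147 raised at neither were 67.4%, against 89.0%. These differences share the 0 h libraries used in the choice, so the shares are a description and were not tested. Transcripts raised at neither had the deepest dip at 6 h, with a median of -0.54, while those raised at both had a median of 0.09. Of the 151 transcripts that did not rest on 120 h replicate 1, 83 were raised at neither time.

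The comparison of 24 h with 12 h asked whether the late-raised transcripts moved further between these times. The limits of the rule used no library of 12 or 24 h, although the FPKM minimum counted them. The spread in the fit came from all libraries, those used in the choice among them. The rule capped the level before these times and set minimum rises after them, so a gradual course would put 24 h over 12 h. The counts here are thus not free of the choice, and their contrast with all transcripts was not tested. The fit with limma called 31 of the 218 higher at 24 h, with an adjusted p under 0.05 and a log2 difference of at least 1, where 2.03% of all 12080 transcripts were called. It called 2 lower, where 1.44% of all were called. With no fold minimum, 82 were higher and 12 lower, against 18.0% and 14.8% of all. The median difference was 0.16 on the log2 scale for the late-raised transcripts and 0.02 for all. The 24 h libraries lay wholly over those of 12 h in 94 of them, against 24.4% of all, and wholly under in 33, against 21.9%. Among the 151 transcripts kept without 120 h replicate 1, 26 were higher and 2 lower, and among the 145 kept without both libraries named above, 25 were higher and 2 lower.

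The calls were also counted by the shape of the course. Of the 50 transcripts that lay 0.8 or more under 0 h at 6 h, 13 were called higher at 24 h, or 26.0%, and none lower. Over all tested, 2.03% were called higher and 1.44% lower. With no fold minimum 35 of the 50 were higher and none lower, against 18.0% and 14.8% of all. Of the other 168, 18 were called higher, or 10.7%, and 2 lower, or 1.19%. Among 1015 transcripts with such a low 6 h value that were not late-raised, 99 were called higher, or 9.75%, and 13 lower. The 271 transcripts that passed the limits at 48 and 120 h but were already 0.3 or more over 0 h at 6 h had a median of 1.27 at 6 h and 1.47 at 24 h. Of these 271, 13 were called higher, or 4.8%, and 27 lower, or 9.96%. The sets were split by 6 h values that the rule used. These counts are set side by side, and the differences between the sets were not tested.

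**Figure D3:**
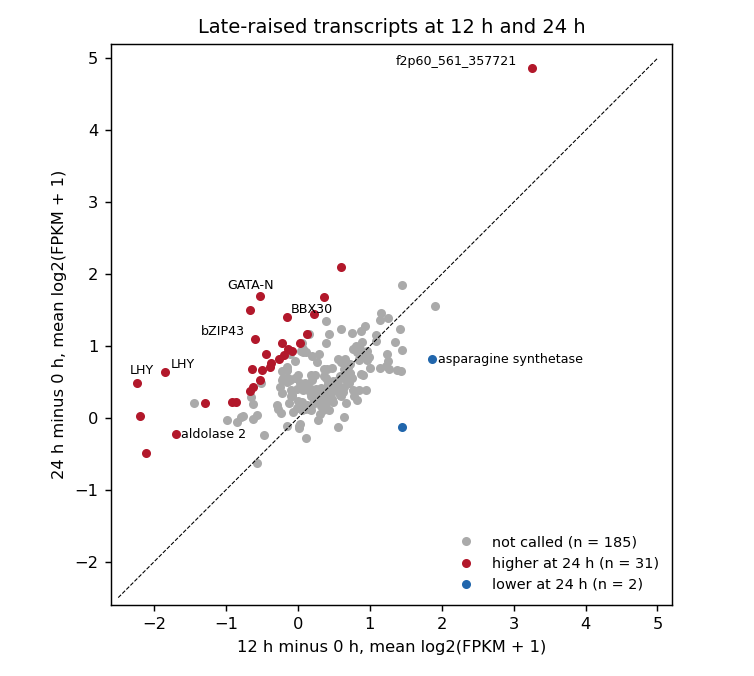
Difference from 0 h in mean log2(FPKM + 1) at 12 h (horizontal) and 24 h (vertical), 1 point for each of the 218 late-raised transcripts, with a dashed line of equality. The 31 transcripts called higher at 24 h lie above the line and the 2 called lower under it, while 185 were not called.

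The named transcripts fall into 7 groups by their annotation. Of the 41, 9 were called higher at 24 h than at 12 h and 1 lower. Over all 12080 transcripts tested, 2.03% were called higher and 1.44% lower, and the counts of each group and list below stand beside these shares. An adjusted p of 0.05 or more was found for 23, whose log2 differences ran from -0.50 to 1.01. Without 120 h replicate 1 the rule kept 34 of the 41.

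**Figure D4:**
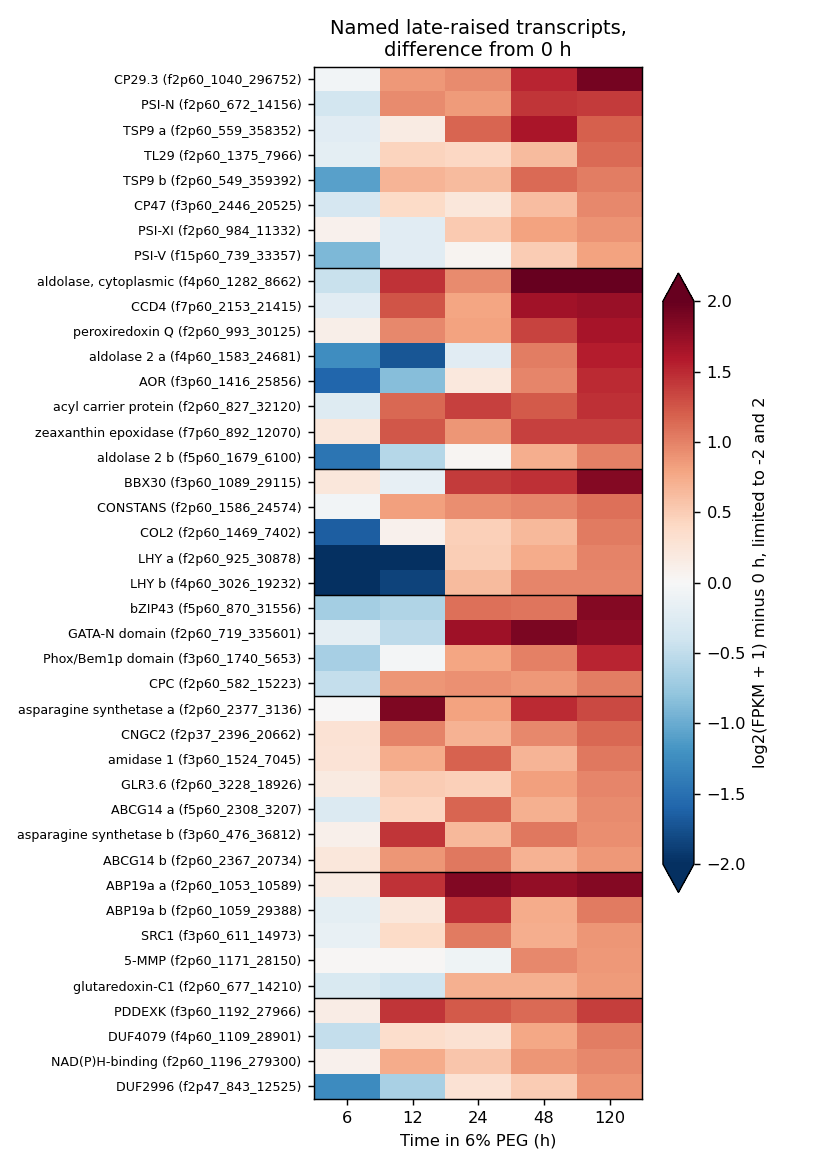
Difference from 0 h in mean log2(FPKM + 1) at the 5 treated times for the 41 named late-raised transcripts, in 7 groups set apart by lines, with the colour limited to -2 and 2. The LHY pair has the deepest values at 6 h, -2.65 and -2.15, and the asparagine synthetase rows peak at 12 h.

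Photosystem and thylakoid proteins formed a group of 8, in which no member passed the test between 12 and 24 h with the fold minimum. Their medians were -0.28 at 6 h, 0.42 at 12 h, 0.58 at 24 h, 0.96 at 48 h and 1.08 at 120 h on the log2 scale. CP29.3 (f2p60_1040_296752), a minor chlorophyll a-b binding protein of photosystem II, had 55.6, 54.3 and 56.1 FPKM at 0 h and 53.7, 51 and 54.1 at 6 h. It had 105, 97.1 and 103 at 12 h, 111, 105 and 108 at 24 h, then 169, 166 and 149 at 48 h and 265, 190.2 and 187 at 120 h. The libraries from 12 h on were all above those of 0 and 6 h, those of 12 and 24 h overlapped, and the mean at 120 h was 3.87 times that at 0 h. Subunit N of photosystem I (f2p60_672_14156), a small lumenal subunit, was low, with 2.56, 3.07 and 2.48 FPKM at 0 h, then 1.97, 2.35 and 1.37 at 6 h and 5.93, 5.43 and 7.13 at 12 h. It had 4.33, 7.63 and 5.43 at 24 h, then 10.8, 8.3 and 8.15 at 48 h and 13.1, 5.6 and 8.85 at 120 h, where the libraries spread over a wide range and replicate 1 was the highest.

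TSP9 is a soluble thylakoid phosphoprotein that associates with the light-harvesting antenna. One of its transcripts (f2p60_559_358352) had 14.1, 9.53 and 14.3 FPKM at 0 h, then 10.6, 8.65 and 12.8 at 6 h and 8.24, 19.4 and 16.9 at 12 h, then 27.5, 26.1 and 34.7 at 24 h, then 35, 42.6 and 46.2 at 48 h and 58.4, 32.8 and 13.4 at 120 h. Its 120 h libraries overlapped those of 0 h, and it was taken only with replicate 1, without which the log2 difference at 120 h was 0.71. The 24 h libraries lay above those of 12 h, with a log2 difference of 1.01 (SE 0.40) that missed the threshold, at an adjusted p of 0.0706. The second TSP9 transcript (f2p60_549_359392) was annotated to the same Populus trichocarpa locus, so that fragments may be split between both and their separate levels are uncertain. It was the more abundant, at 84.4, 80.7 and 68.2 FPKM at 0 h, then 38.5, 35.3 and 34.5 at 6 h and 205, 139 and 141 at 120 h.

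TL29 (f2p60_1375_7966), a thylakoid lumenal protein, had 8.74, 8.88 and 8.86 FPKM at 0 h, then 7.6, 8.3 and 6.99 at 6 h and 14.7, 10.3 and 12.7 at 12 h. It had 12, 11.7 and 12.5 at 24 h, then 14.7, 14.2 and 13.7 at 48 h and 26.5, 18.8 and 17.1 at 120 h, so that all 120 h libraries were above those of every other time. CP47 (f3p60_2446_20525), a core antenna protein of photosystem II, had log2 differences of 0.23 at 24 h and 0.96 at 120 h. Subunit XI of photosystem I (f2p60_984_11332) had 1.87, 2.83 and 6.9 FPKM at 0 h and 10.8, 4.08 and 8.56 at 120 h, and these libraries overlapped. Subunit V of photosystem I (f15p60_739_33357), the most abundant of the group, went from 353, 358 and 367 FPKM at 0 h to 193, 188 and 195 at 6 h and stood at 372, 379 and 374 at 24 h, then 499, 492 and 538 at 48 h and 804, 543 and 575 at 120 h. It had a log2 difference of 0.29 (SE 0.10) between 24 and 12 h at an adjusted p of 0.0359, under the fold minimum. Both photosystem I subunits XI and V were taken only with 120 h replicate 1. Without 48 h replicate 3, subunit V also fell under the limit at 48 h, with a log2 difference of 0.46.

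The wider list of 25 photosystem, chlorophyll-binding and thylakoid transcripts, of which these 8 were part, had a deeper dip than the group. Its medians were -1.04 at 6 h, -0.33 at 12 h, 0.06 at 24 h, 0.46 at 48 h and 0.70 at 120 h on the log2 scale. Its summed FPKM ran from 2938 to 3055 in the 0 h libraries and from 1269 to 1376 at 6 h. It ran from 2219 to 2284 at 12 h, from 2724 to 3252 at 24 h and from 3943 to 4437 at 48 h, and it was 5610, 4394 and 4291 at 120 h. The 17 transcripts of the list that were not late-raised summed to 2529, 2415 and 2499 FPKM at 0 h. Their sums were lower at 12 h, at 1687, 1646 and 1702 FPKM, and higher at 120 h, at 4214, 3449 and 3329 FPKM. No transcript of the list was at 0 in any library other than 1 in 6 h replicate 3. These are also markers of green tissue, and their part in the result was not tested. Of the 25, 2 were called higher at 24 h than at 12 h and none lower, and with no fold minimum 6 were higher and none lower. A list of 7 root markers, nitrate transporters, peroxidases, cell wall proteins and the suberin enzyme cytochrome P450 86A1, was above 0 in every library. Its summed FPKM ran from 964 to 1001 at 0 h, from 2298 to 2331 at 6 h, from 1837 to 1898 at 12 h, from 2049 to 2130 at 24 h, from 993.2 to 1333 at 48 h and from 781 to 888 at 120 h. At 120 h it was thus below its 0 h range, where the green list was above its own. At 6 h both repetitive proline-rich cell wall protein 2 transcripts were above 0 h, at 1381, 1278 and 1276 and at 644, 787 and 762 FPKM. Every other transcript of the root list had all 6 h libraries under those of 0 h, so its sum at that time does not describe most of its members. Cytochrome P450 86A1 went from 64.3, 67.4 and 67.3 FPKM at 0 h to 35.5, 35.5 and 34.0 at 120 h, and peroxidase 64 from 63.6, 66.0 and 65.6 to 13.2, 15.4 and 17.2. Of the 7, 4 had all 120 h libraries under those of 0 h, both repetitive proline-rich cell wall protein 2 transcripts had them over, and high affinity nitrate transporter 2.4 overlapped. Their part in the result was not tested.

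Plastid and carbon metabolism gave the next group of 8, with medians of -0.36 at 6 h, 1.05 at 12 h, 0.79 at 24 h, 1.29 at 48 h and 1.53 at 120 h on the log2 scale. Of these, 2 were called higher at 24 h, none lower, and the rule kept all 8 without 120 h replicate 1. Fructose-bisphosphate aldolase splits or joins a sugar bisphosphate in glycolysis and in the Calvin cycle. The cytoplasmic isozyme (f4p60_1282_8662) had 23.8, 24 and 23.6 FPKM at 0 h, then 15.7, 18.9 and 17.1 at 6 h and 62.9, 69.3 and 67.7 at 12 h. It went on at 49.4, 41.9 and 49.1 at 24 h, then 90.7, 90.9 and 119 at 48 h and 176, 82.3 and 82.7 at 120 h, a ratio of 4.78 to 0 h. Its 24 h libraries lay under those of 12 h, but the log2 difference of -0.50 (SE 0.22) missed the threshold with an adjusted p of 0.0896.

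A chloroplast aldolase 2 (f4p60_1583_24681) took another course. It went from 182, 189.5 and 183 FPKM at 0 h to 81.9, 74.2 and 77.8 at 6 h and 54.9, 57.4 and 56.1 at 12 h. It was back at 155, 162 and 155 at 24 h and stood at 404, 394 and 334 at 48 h and 779, 468 and 467 at 120 h. The libraries of 6, 12 and 24 h were all under those of 0 h, and the rise from 12 to 24 h was 1.47 on the log2 scale (SE 0.14, adjusted p = 2.91e-06). The other chloroplast aldolase 2 (f5p60_1679_6100) went from 385, 386 and 389 FPKM at 0 h to 142, 143 and 137 at 6 h and 1006, 676 and 688 at 120 h. Its difference between 24 and 12 h, 0.61 (SE 0.10, adjusted p = 4.37e-04), was under the fold minimum.

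CCD4 (f7p60_2153_21415), a carotenoid cleavage dioxygenase of plastids, had 6.75, 5.61 and 5.36 FPKM at 0 h, then 4.93, 4.93 and 4.79 at 6 h and 15.5, 15.3 and 15.4 at 12 h. It had 11.2, 9.67 and 11.8 at 24 h, then 20.1, 22.4 and 20.4 at 48 h and 33.8, 17.1 and 17.9 at 120 h, where replicate 1 alone was above the 48 h libraries. Peroxiredoxin Q (f2p60_993_30125), a plastid enzyme that reduces peroxides, had 34.6, 37.8 and 35.5 FPKM at 0 h, 40.6, 41.3 and 35.6 at 6 h, then 73.7, 65.9 and 72.8 at 12 h, 64.4, 63.2 and 62.7 at 24 h, then 94.2, 91.1 and 94.9 at 48 h and 169, 88.5 and 100.2 at 120 h. Its libraries from 12 h on all lay above those of 0 and 6 h. Both enzymes had 24 h libraries wholly under those of 12 h, with log2 differences of -0.47 (adjusted p = 0.056) and -0.15 (adjusted p = 0.503) that missed the threshold.

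The alkenal/one oxidoreductase AOR (f3p60_1416_25856), which reduces reactive carbonyls in chloroplasts of Arabidopsis, went from 23.6, 24.1 and 25.7 FPKM at 0 h to 7.91, 8.06 and 6.46 at 6 h. It had 12.8, 14 and 12.4 at 12 h, 28.3, 27.8 and 29.7 at 24 h, then 46.7, 46.7 and 53.5 at 48 h and 110.1, 54.6 and 57.7 at 120 h. The 12 h libraries were all under those of 0 h and the 24 h libraries all over them, and the difference between both times was 1.08 (SE 0.19, adjusted p = 4.79e-04). Acyl carrier protein 1 (f2p60_827_32120), which holds the growing chain in fatty acid synthesis, and zeaxanthin epoxidase (f7p60_892_12070), on the way from carotenoids to abscisic acid, were both raised at 12 h already. Their log2 differences were 1.14 and 1.24 at 12 h and 1.45 and 1.37 at 120 h. Over the 58 tested transcripts named chloroplastic in the annotation, 11 of them late-raised, 5 were called higher at 24 h and 3 lower, with a median difference of 0.03, close to the 0.02 of all transcripts.

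Clock and B-box factors were 5 of the late-raised transcripts. Of these 3 were called higher at 24 h than at 12 h and none lower. LHY, a MYB-related repressor of the clock, had a pair of transcripts from different loci. The first (f2p60_925_30878) had 50.5, 45.9 and 54 FPKM at 0 h, then 7.27, 6.96 and 7.08 at 6 h and 10.6, 9.09 and 9.71 at 12 h. At 24 h it had 81, 61.2 and 71.2, at 48 h 89.2, 83.8 and 79.1 and at 120 h 133, 87.2 and 88.7 FPKM. The second (f4p60_3026_19232) had 24.4, 22.4 and 24 FPKM at 0 h, 4.45, 4.46 and 4.68 at 6 h, then 6.13, 5.42 and 5.93 at 12 h, 42.5, 31.8 and 38.3 at 24 h, then 48.4, 49.1 and 44.6 at 48 h and 64.7, 39.2 and 41.7 at 120 h. Both were lower at 6 and 12 h than in any 0 h library and higher than in any 0 h library from 24 h on. The rise from 12 to 24 h was 2.73 (SE 0.14, adjusted p = 3.04e-09) for the first and 2.49 (SE 0.14, adjusted p = 1.31e-08) for the second on the log2 scale. The second was taken only with 120 h replicate 1, without which its 120 h difference was 0.75, and the first stayed at 0.80.

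BBX30 (f3p60_1089_29115), a small B-box zinc finger protein, had 4.8, 5.14 and 5.08 FPKM at 0 h, then 5.92, 5.74 and 6.43 at 6 h and 3.85, 4.01 and 5.41 at 12 h, before 15.7, 15.4 and 13.6 at 24 h, then 15.9, 15.5 and 15.3 at 48 h and 25.4, 18.1 and 18.3 at 120 h. The 6 h libraries were all slightly above those of 0 h, the 12 h libraries overlapped them, all later ones were above the earlier, and the log2 difference of 24 from 12 h was 1.56 (SE 0.12, adjusted p = 3.43e-07). CONSTANS (f2p60_1586_24574), a B-box factor of day-length responses in Arabidopsis, was at 6.36, 6.4 and 6.32 FPKM at 0 h, then 5.96, 6.0 and 6.22 at 6 h and 12.8, 11.5 and 11.9 at 12 h. It remained near that level, with 14.1, 12.9 and 11.9 at 24 h, then 14.6, 13.9 and 12.2 at 48 h and 14.8, 14.9 and 14.8 at 120 h. The step of CONSTANS thus lay between 6 and 12 h, and the difference of 24 from 12 h was 0.10 (SE 0.07, adjusted p = 0.34). CONSTANS-LIKE 2 (f2p60_1469_7402) was low at 6 h and higher at each later time in turn. Its libraries had 15.8, 15.3 and 15.1 FPKM at 0 h, 3.97, 4.29 and 4.39 at 6 h, then 16.2, 16.7 and 16.2 at 12 h, 22.4, 21.8 and 21.2 at 24 h, then 25, 22.5 and 26.9 at 48 h and 30.6, 35.1 and 32.2 at 120 h. The difference of 24 from 12 h was 0.39 (SE 0.07, adjusted p = 3.92e-04), under the fold minimum. Over all 10 tested transcripts named LHY, REVEILLE, CONSTANS or B-box, 4 were called higher at 24 h and none lower, and the median was -1.16 at 6 h and 0.87 at 120 h.

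**Figure D5:**
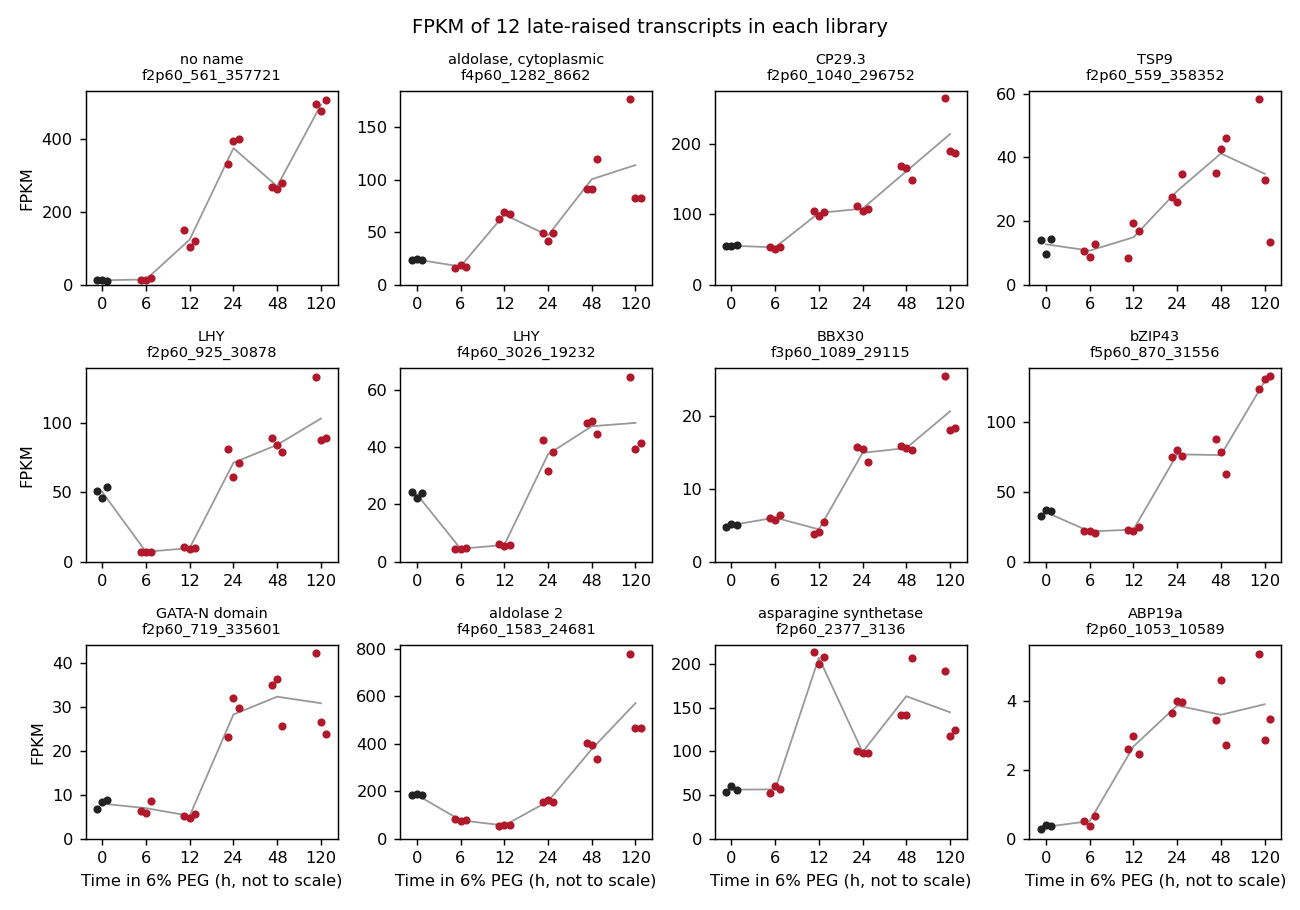
FPKM in each library of 12 late-raised transcripts against time in PEG, with a grey line through the means of 3 replicates, black points for 0 h and red points for treated roots. The LHY pair, bZIP43 and aldolase 2 lie under 0 h at 6 and 12 h, and replicate 1 is the highest 120 h point in most panels.

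Other regulators made up a group of 4, of which 2 were called higher at 24 h. The basic leucine zipper protein bZIP43 (f5p60_870_31556) had 32.7, 37 and 36.6 FPKM at 0 h, then 22.1, 22.2 and 20.6 at 6 h and 22.5, 21.9 and 24.7 at 12 h. It had 74.8, 80.4 and 75.6 at 24 h, then 87.8, 78.8 and 62.7 at 48 h and 124, 131 and 133 at 120 h, with no overlap between the early and the later libraries. Its rise from 12 to 24 h was 1.70 (SE 0.09, adjusted p = 8.52e-09), and the 120 h libraries were close to one another. A transcript with the N-terminal domain of GATA-type transcription activators (f2p60_719_335601) had 6.81, 8.39 and 8.75 FPKM at 0 h, 6.39, 5.88 and 8.61 at 6 h, then 5.23, 4.79 and 5.61 at 12 h, 23.1, 31.9 and 29.7 at 24 h, then 34.9, 36.4 and 25.6 at 48 h and 42.1, 26.4 and 23.8 at 120 h. The rise from 12 to 24 h was 2.22 (SE 0.20, adjusted p = 1.29e-06), and the later times overlapped one another.

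A transcript with a Phox/Bem1p domain (f3p60_1740_5653), a protein interaction domain, had 6.9, 6.76 and 7.58 FPKM at 0 h, 4.78, 3.87 and 3.66 at 6 h, then 7.61, 5.47 and 7.64 at 12 h, 13.3, 11.2 and 14.8 at 24 h, then 15.3, 17.7 and 12.9 at 48 h and 22.2, 22.7 and 22 at 120 h. Its difference of 24 from 12 h, 0.84 (SE 0.13, adjusted p = 2.52e-04), stayed under the fold minimum. CPC (f2p60_582_15223), a small MYB protein that promotes root hair fate in Arabidopsis, was the most abundant of the 4. It had 106, 101 and 99.3 FPKM at 0 h, 72.5, 72.8 and 74.4 at 6 h, then 193, 177 and 195 at 12 h, 170.2, 209 and 203 at 24 h, then 195, 191 and 172 at 48 h and 193, 216 and 217 at 120 h. All its 6 h libraries were under those of 0 h and all its 12 h libraries over them, and the 24 h and 12 h libraries overlapped, with a difference of 0.04 (SE 0.07, adjusted p = 0.718). Of 121 tested transcription factors of the study's own list, which it drew from transcripts changed in these samples, 7 were late-raised, 16 were called higher at 24 h and 2 lower, and the list's median was -0.09 at 120 h.

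Nitrogen metabolism, transport and ion channels gave 7 transcripts, of which none was called higher and 1 was called lower at 24 h. Asparagine synthetase moves the amide nitrogen of glutamine to aspartate, and asparagine carries nitrogen between organs. The main transcript (f2p60_2377_3136) had 53.1, 59.9 and 55.7 FPKM at 0 h, then 52.4, 59.9 and 57.5 at 6 h and 214, 200.2 and 208 at 12 h. At 24 h it was back at 101, 98.7 and 98.5, before 142, 142 and 206 at 48 h and 192, 118 and 124 at 120 h. Its highest libraries were thus those of 12 h, overlapped at 48 h by replicate 3 alone, and the difference of 24 from 12 h was -1.05 (SE 0.16, adjusted p = 1.70e-04). A shorter transcript (f3p60_476_36812) was annotated to the same locus, so that the split of fragments between both is uncertain. It had 24.6, 26.1 and 32.1 FPKM at 0 h, then 79.7, 77.1 and 70.8 at 12 h and 31, 46.5 and 57.4 at 24 h, a difference of -0.78 (SE 0.18, adjusted p = 0.0044). All 4 tested asparagine synthetase transcripts were lower at 24 h than at 12 h with no fold minimum, and 2 of them with it.

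CNGC2 (f2p37_2396_20662), a cation channel gated by cyclic nucleotides, was low, with 2.52, 2.3 and 2.06 FPKM at 0 h, then 2.42, 3.82 and 2.91 at 6 h and 5.89, 5.45 and 5.34 at 12 h. It had 4.29, 4.1 and 4.56 at 24 h, then 6.39, 5.83 and 4.24 at 48 h and 5.61, 6.47 and 6.87 at 120 h, and 0 h libraries were below all of 12 h and later. The fold changes that the study printed for CNGC2 follow another course, largest at 24 h and with no rise at 120 h. Its place among the late-raised transcripts thus holds for the FPKM used here and not for those printed values. Amidase 1 (f3p60_1524_7045), which in Arabidopsis turns indole-3-acetamide into auxin, had 11.5, 8.62 and 9.89 FPKM at 0 h, 12.1, 12.6 and 12 at 6 h, then 16.8, 16.8 and 18.4 at 12 h, 25.6, 20.5 and 25.9 at 24 h, then 17.5, 20.0 and 12.9 at 48 h and 15, 24.6 and 28 at 120 h. Its 120 h replicate 1 was the lowest of its time, unlike in most late-raised transcripts. GLR3.6 (f2p60_3228_18926), a glutamate receptor-like channel, was near the filter's minimum of 1 FPKM, with 0.75, 1.14 and 0.82 FPKM at 0 h, then 1.01, 1.0 and 1.5 at 6 h and 1.83, 1.71 and 1.57 at 12 h. Later it had 1.61, 1.4 and 1.95 at 24 h, then 2.72, 2.3 and 2.09 at 48 h and 3.47, 2.23 and 2.65 at 120 h, so that a pseudocount of 1 weighs on its differences. For CNGC2, amidase 1 and GLR3.6 the differences of 24 from 12 h were -0.30, 0.44 and -0.03, with adjusted p of 0.123, 0.089 and 0.915.

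ABCG14, a transporter that sends cytokinin from root to shoot in Arabidopsis, had transcripts from 2 loci. The abundant one (f5p60_2308_3207) had 65.6, 63.7 and 68 FPKM at 0 h, 51.6, 55.8 and 55.1 at 6 h, then 95.3, 81.2 and 90.3 at 12 h, 156, 140.3 and 151 at 24 h, then 113, 100.4 and 110.2 at 48 h and 126, 127 and 131 at 120 h. It was highest at 24 h, where all libraries exceeded those of every other time, and the difference from 12 h was 0.74 (SE 0.06, adjusted p = 7.65e-07), under the fold minimum. The other (f2p60_2367_20734) also had its highest mean at 24 h, with log2 differences of 0.89 at 12 h, 1.05 at 24 h and 0.87 at 120 h.

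Of the remaining 5 proteins with a name, 2 were called higher at 24 h. Auxin-binding protein ABP19a is a germin-like protein first named in peach. Its first transcript (f2p60_1053_10589) had 0.28, 0.39 and 0.37 FPKM at 0 h, then 0.51, 0.38 and 0.65 at 6 h and 2.61, 2.98 and 2.45 at 12 h. It had 3.64, 4.01 and 3.96 at 24 h, then 3.46, 4.62 and 2.72 at 48 h and 5.37, 2.88 and 3.47 at 120 h, so that the level was low throughout and the libraries of 12 h and later did not overlap those before. The second (f2p60_1059_29388) had 1.67, 2.06 and 1.68 FPKM at 0 h, 1.61, 1.4 and 1.35 at 6 h, then 2.12, 2.31 and 2.37 at 12 h, 6.83, 5.28 and 8.07 at 24 h, then 4.87, 4.21 and 2.37 at 48 h and 4.29, 5.27 and 4.81 at 120 h. Its rise from 12 to 24 h was 1.23 (SE 0.19, adjusted p = 1.52e-04), against 0.41 (SE 0.19, adjusted p = 0.117) for the first.

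SRC1 (f3p60_611_14973) was among the abundant late-raised transcripts, with 966, 849 and 815 FPKM at 0 h, then 806, 779.6 and 786 at 6 h and 1175, 1124 and 1129 at 12 h. It had 1926, 1695 and 1799 at 24 h, then 1414, 1506 and 1441 at 48 h and 1505, 1602 and 1758 at 120 h, and its difference of 24 from 12 h was 0.66 (SE 0.07, adjusted p = 5.45e-06). Glutaredoxin-C1 (f2p60_677_14210), a thiol redox protein, was called higher at 24 h with libraries that spread widely. It had 64.6, 43.6 and 57 FPKM at 12 h and 76.1, 206 and 104 at 24 h, a log2 difference of 1.1 (SE 0.32, adjusted p = 0.0158). Without 24 h replicate 2 this difference was 0.70 with an adjusted p of 0.0639, and without 12 h replicate 2 it was 0.95 with an adjusted p of 0.0682. The metalloendoproteinase 5-MMP (f2p60_1171_28150), a matrix metalloproteinase, was listed at 0.24, 0.07 and 0.25 FPKM at 0 h, 0.22, 0.16 and 0.24 at 6 h, then 0.07, 0.46 and 0.12 at 12 h and 0.12, 0.24 and 0 at 24 h. It had 0.69, 1.03 and 2.61 at 48 h and 1.63, 0.88 and 1.04 at 120 h, so that all libraries of 48 and 120 h were above all earlier ones, and it was taken only with 120 h replicate 1. As 5-MMP reached 1 FPKM in libraries of 48 and 120 h alone, the FPKM minimum and the rule largely set that order. Its values lie near that minimum, so that a pseudocount of 1 weighs on its differences.

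A further group of 4 was named by a domain alone, as were some of the transcripts above, and none of the 4 was called between 12 and 24 h. The PDDEXK-like transcript (f3p60_1192_27966) had 5.12, 6.79 and 4.29 FPKM at 0 h, 5.12, 5.94 and 7.13 at 6 h, then 16.8, 14.7 and 16.4 at 12 h, 14.4, 12.5 and 14.7 at 24 h, then 13.4, 11.7 and 13.4 at 48 h and 16.8, 15.4 and 14.1 at 120 h. Its libraries of 12 h and later were all above those of 0 and 6 h. A DUF4079 transcript (f4p60_1109_28901) had 55.7, 57.1 and 58.1 FPKM at 0 h, 39.3, 42.4 and 39.9 at 6 h, then 74, 70.7 and 73.7 at 12 h, 66.6, 70.8 and 74.5 at 24 h, then 99.3, 97.4 and 98.6 at 48 h and 159, 97.7 and 103 at 120 h, so that the 6 h libraries were under and all later ones over those of 0 h.

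DUF2996 (f2p47_843_12525) had 11.6, 11.8 and 11 FPKM at 0 h, 4.73, 3.7 and 4.18 at 6 h, then 7.43, 6.01 and 7.51 at 12 h, 14.2, 11.1 and 18.2 at 24 h, then 15.7, 15.3 and 19.1 at 48 h and 31.9, 19.4 and 17.5 at 120 h. All its 6 and 12 h libraries were under those of 0 h. Its difference of 24 from 12 h, 0.94 (SE 0.19, adjusted p = 0.00174), was just under the fold minimum, and it was called higher with a pseudocount of 0.1, at 1.02 (adjusted p = 0.00148), and without 24 h replicate 2, at 1.1 (adjusted p = 0.00103). An NAD(P)H-binding protein (f2p60_1196_279300) had 0.76, 1.22 and 1.55 FPKM at 0 h, 1.56, 1.18 and 1.16 at 6 h, then 2.52, 2.75 and 2.57 at 12 h, 1.82, 1.87 and 2.85 at 24 h, then 2.69, 3.23 and 3.06 at 48 h and 4.56, 2.26 and 3.03 at 120 h. It was low throughout, with all libraries from 12 h on above those of 0 and 6 h. DUF2996 and the NAD(P)H-binding transcript rested on 120 h replicate 1. Without 48 h replicate 3, DUF2996 also fell under the limit at 48 h, with a log2 difference of 0.41.

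The largest differences at 120 h belonged mostly to transcripts without a name. Of the 177 that had none, 22 were called higher at 24 h than at 12 h and 1 lower, against 2.03% and 1.44% of all transcripts tested. First by size was f2p60_561_357721, whose best match in the annotation is a hypothetical protein of the Populus trichocarpa locus POPTR_0006s00430g. It had 12.2, 12.3 and 11.1 FPKM at 0 h, 13, 11.7 and 17.4 at 6 h, then 149, 103 and 119 at 12 h, 331, 394 and 399 at 24 h, then 269, 262 and 279.5 at 48 h and 495, 478 and 507 at 120 h. The mean at 120 h was 41.6 times that at 0 h, and the 12 h mean already 10.4 times, with no overlap of either with 0 or 6 h. It rose from 12 to 24 h by 1.60 on the log2 scale (SE 0.13, adjusted p = 5.15e-07), and 120 h replicate 1 did not stand apart here.

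Next came f5p60_731_33494, of 731 bases and with no annotation at hand, at 4.3, 2.91 and 2.99 FPKM at 0 h, then 3.15, 4.42 and 3.54 at 6 h and 10.2, 10.1 and 8.0 at 12 h. It had 13.4, 7.04 and 11.7 at 24 h, then 14.8, 12.5 and 16.7 at 48 h and 52.6, 27.5 and 26.4 at 120 h, and without replicate 1 the log2 difference at 120 h was 2.68 in place of 2.99. The third, f2p60_713_33646, matched a hypothetical protein of locus POPTR_0017s14100g and was also among the 3 most abundant at 120 h. It went from 443, 425 and 436 FPKM at 0 h to 232, 217 and 230.5 at 6 h and stood at 568, 534 and 579 at 12 h, 1248, 1481 and 1465 at 24 h, then 1901, 1864 and 1814 at 48 h and 4074, 3212 and 3074 at 120 h. Every time from 6 h on was set apart from the one before it, and the rise from 12 to 24 h was 1.31 (SE 0.09, adjusted p = 7.13e-08).

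The fourth, f2p60_418_37419, was a short transcript of 418 bases that was listed at 0 in some libraries of 0, 6, 12 and 48 h. It had 0, 0 and 9.21 FPKM at 0 h, then 8.63, 0 and 0 at 6 h and 0, 8.02 and 13.3 at 12 h. Later it had 4.05, 2.5 and 1.62 at 24 h, then 3.6, 0 and 11.7 at 48 h and 11.1, 25.1 and 13 at 120 h. Its 48 h libraries overlapped those of 0 h, and without 48 h replicate 3 its difference at 48 h was -0.02. The fifth was the cytoplasmic aldolase described above.

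The highest levels at 120 h were those of f2p27_947_11751 and f8p60_970_30386, neither with an annotation at hand. The first had 3225, 3701 and 3813 FPKM at 0 h, then 1978, 2040.3 and 2221 at 6 h and 3687, 4064 and 4051 at 12 h. It had 4210.5, 3701 and 3969 at 24 h, then 6453, 6250.5 and 5693 at 48 h and 9247, 6039 and 6414 at 120 h, so that it was lower at 6 h, overlapped 0 h at 12 and 24 h and exceeded it at 48 and 120 h. The second had 2466, 2127 and 2106 FPKM at 0 h, 1637, 1228 and 1335 at 6 h, then 2155, 2293 and 2175 at 12 h, 1863, 3060.4 and 2562 at 24 h, then 3538, 3720.2 and 3771 at 48 h and 5405, 4129 and 3651 at 120 h, in the same order of times. Neither passed the test between 12 and 24 h, with adjusted p of 0.969 and 0.533. Without 120 h replicate 1 both had a log2 difference of 0.80 at 120 h, at the limit of the rule.

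At the edges of the rule the transcripts taken and left were close to one another. The limit at 120 h separated f2p34_1776_23358 and f4p60_2915_19439, both at a log2 difference of 0.8004, from f2p60_835_32010 at 0.7996 and f3p60_1205_27777 at 0.7981. At 48 h it took subunit V of photosystem I (f15p60_739_33357) at 0.5018 and DUF2996 (f2p47_843_12525) at 0.5020, and left f2p60_704_33779 at 0.4993. It also left a second subunit V transcript, f4p60_809_12923, at 0.4833, whose mean was 276 FPKM at 0 h, 117 FPKM at 6 h and 495 FPKM at 120 h. At 6 h CNGC2 (f2p37_2396_20662) was taken at 0.2862 and f2p60_1082_10402 at 0.2982, while f2p20_1519_7034 was left at 0.3011 and f2p60_1110_28760 at 0.3042. The last of these had 282 FPKM at 0 h, 845 FPKM at 12 h and 707 FPKM at 120 h.

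Other lists from the annotation held between none and 2 late-raised transcripts, where 1.8% of all tested were late-raised. Of 26 tested class III peroxidases, cell wall enzymes of lignin and defense, none was, and their median was -0.99 at 120 h on the log2 scale. None of 3 ethylene biosynthesis transcripts was either. The 4 carotenoid enzymes held 2, with a list median of 1.25 at 12 h and 0.94 at 120 h, and 1 of the 4 was called lower and none higher at 24 h. Of 6 ABC transporters of the G family 2 were late-raised, with 1 called higher and 1 lower at 24 h, and of 3 ABP19a and germin-like transcripts 2, with 2 called higher and none lower. Each of these lists is small, and most of its names come from transcripts that the study had called changed.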

How the data were processed

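RNA of 18 root libraries was sequenced as paired ends, and the authors mapped clean reads to their own full-length PacBio transcripts. The deposited values are FPKM per transcript, which the submitters' processing notes link to RSEM 1.2.31 and HTSeq 0.6.0. Fragment counts were not used here, so precision was read from the spread between replicates. The table's columns carry codes without times. Columns coded C were taken as 0 h, the treated codes as the 5 later times by their first digit, and the final digit as the replicate number. That mapping was inferred from the codes and checked against the direction of changes in the study's tables, of which no value is printed. CNGC2 departed from those tables, as described above. RSEM divides fragments that match several transcripts, so levels of near-identical transcripts are uncertain. Names came from the study's annotation tables, which listed 1057 transcripts, all found in the FPKM table, 804 of them with a name.

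FPKM were transformed as log2(FPKM + 1). For the comparison of 24 h with 12 h, the R package limma (3.58.1, R 4.3.3) was run on the 12080 transcripts with FPKM of at least 1 in 3 or more libraries, with all 18 libraries, time as a factor, an intensity trend and robust moderation. p-values were adjusted by Benjamini-Hochberg over all 12080, and a call needed an adjusted p under 0.05 and a log2 difference of at least 1. The fit was first tried on simulated data. Only transcripts with a small spread within a time were given a change there, so noisier transcripts were not covered. Python 3.11.15 with numpy 2.4.6, pandas 2.3.3 and matplotlib 3.10.9 did the rest. Transcripts are named where the annotation gives a protein or domain name. Up to 4 per group with the largest difference at 120 h, the 5 largest and the 3 most abundant of all are given in full. The LHY, ABCG14, asparagine synthetase, AOR and aldolase transcripts beyond these, and other values beyond that rule, were added after their values were seen. The rule, the members and the lists were chosen with earlier results of these data known. Alternatives changed the pseudocount, filter, scaling, variance model, libraries, block and call rule.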

Additional observations from a re-analysis of the deposited data

Results flagged for a closer look

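In 14 of the 218 late-raised transcripts, or 6.42%, every 12 h library was under every 0 h library, every 24 h library was over every 0 h library, and 24 h was called higher than 12 h by limma. The same held for 79 of all 12080 transcripts tested, or 0.654%. The 12 h and 24 h effects thus had opposite signs. The difference between them was tested by the comparison of 24 h with 12 h, in which the shared 0 h libraries drop out. The orders against 0 h are not free of the choice. The 218 were chosen for later levels above these same 0 h libraries, which favours 24 h libraries above them. The shares of 6.42% and 0.654% are therefore given as a description, and the contrast between them was not tested. Of the 14, 5 have a name. The log2 difference of 24 h from 12 h was 2.73 and 2.49 for the LHY transcripts (f2p60_925_30878 and f4p60_3026_19232), 2.22 for the transcript with a GATA-type domain (f2p60_719_335601), 1.70 for bZIP43 (f5p60_870_31556) and 1.08 for AOR (f3p60_1416_25856). Their values in each library are given above.

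The other 9 have no name. The first by size, f2p60_1048_29551, had 34.4, 30.3 and 29.7 FPKM at 0 h, then 20.2, 18.4 and 19.8 at 12 h, before 91.5, 90.2 and 90.2 at 24 h, a log2 difference of 2.16 between the last times. It had 67.5, 68.6 and 25.9 FPKM at 48 h, where replicate 3 was under the 0 h libraries. The difference was 1.34 for f4p60_1921_4685, 1.32 for f2p60_2215_3483, 1.16 for f2p60_781_32737 and 1.15 for f2p60_1307_8403. It was 1.08 for f4p60_1047_29473, 1.06 for f2p51_852_32156, 1.05 for f2p35_723_13752 and 1.04 for f3p60_910_31102. f2p51_852_32156 was low, at 1.61, 2.18 and 1.89 FPKM at 12 h, before 3.8, 5.75 and 5.69 at 24 h.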

How the results depend on the processing

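With no fold minimum the comparison of 24 h with 12 h gave 82 late-raised transcripts higher and 12 lower, and 2170 and 1790 over all. With 5 FPKM required in 3 libraries, 1 was lower. A length of at least 1000 bases left 127 late-raised transcripts. With a limit of 0.5 in place of 0.8, 57 were raised at 12 and 24 h, 54 at 24 h alone and 88 at neither. Among transcripts kept without 120 h replicate 1, 83 were raised at neither, and among those kept without it and 48 h replicate 3, 78. These last 2 settings were chosen after the data were seen. Leaving out 1 library at a time gave 28 to 34 higher and 2 lower among the late-raised, 231 to 265 and 160 to 183 over all, and 158 to 256 late-raised transcripts. Of the 31 called higher, 24 stayed so in each of 26 alternative fits. Of 520 values of 20 single transcripts under these fits, 515 kept their direction and side of the threshold, 3 lost the call, 2 gained it and none reversed. Both gains were DUF2996 (f2p47_843_12525), at 1.02 with a pseudocount of 0.1 and at 1.1 without 24 h replicate 2. The 3 losses were glutaredoxin-C1 (f2p60_677_14210), lost without 12 h replicate 2, without 24 h replicate 2, and with the libraries of 12 and 24 h alone. Centring each library on its median moved the split with no fold minimum to 73 and 18 late-raised and 1786 and 2194 over all.

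Replicate numbers do not pair the samples by the labels. Same-numbered 12 h and 24 h libraries had correlations of deviations of 0.04, -0.03 and 0.05, and a replicate block gave 31 higher and 2 lower among the late-raised and 243 and 174 over all.

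The data hold FPKM and no counts, 3 pools per time, no control without PEG, and names for 41 of the 218. The 120 h levels rest in part on replicate 1. Of the 218, 116 were kept under each single leave-out. At 48 h replicate 3 stood apart from the others of its time, while the rule without it kept 209 of the 218.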
